A study of Mus musculus with 10 samples.

Results

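The Ly6 genes encode small, cysteine-rich surface proteins with a three-finger fold, most of them tethered to the outer membrane by a glycosylphosphatidylinositol (GPI) anchor. Several are used as antigens to sort blood cells and stem cells, and in the mouse many of them lie in a cluster that also holds the steroid 11-beta-hydroxylase gene and the aldosterone synthase gene of the adrenal cortex. Of 7 genes named for the family here (Ly6d, Ly6a, Ly6e, Ly6h, Ly6c1, Ly6c2 and Ly6k), 4 were measured: Ly6d, Ly6e, Ly6h and Ly6k, out of 19661 genes measured in all. A member had to have a measured array probe paired with exactly 1 gene symbol, and each of the 4 had 1 such probe. No probe carried the symbol Ly6a in the annotation used, and Ly6c1 and Ly6c2 shared 2 probes that had no values, so these 3 genes were not analysed here.

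The family was chosen by the measured level of Ly6d, which was known to be among the brightest of these arrays. The levels and ranks given below are therefore a description, with no test.

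Whole adrenal RNA from 10 mice was hybridised to Affymetrix arrays, with 1 array for each animal. There were 5 mice labelled Crem-/- (KO), in which the gene for the transcription factor cAMP responsive element modulator is disrupted, and 5 wild-type (WT) mice. Both groups had the same background, a 129Pas x C57Bl/J mix, and were 8 weeks old, untreated, and killed at 0 h of circadian time. The labels also place the arrays in 4 batches: batch 1 held KO 1, KO 2 and WT 1, batch 2 held KO 3 and KO 4, batch 3 held KO 5, WT 2, WT 3 and WT 4, and batch 4 held WT 5. All levels are log2 values after RMA (robust multi-array average), a difference is KO minus WT on that scale, and a level is the signal of a probe. The signal depends on the probe's own sequence as well as on the RNA, and RMA gives no detection call.

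For Crem itself, the KO arrays averaged 7.36 ± 0.51 and the WT arrays 7.54 ± 0.37 (SD, n = 5 each). The 2 groups overlapped, and it is not known here whether the probe lies in the disrupted part of the gene, so these values did not check the genotype labels. Array medians lay between 7.17 and 7.25. KO 2, KO 5 and WT 3 stood apart from the other arrays on the first principal component, which held 53.8% of the variance. All 11 measured genes of a list for cortex steroidogenesis and all 16 of a list for chromaffin and neural cells were above the level of the median gene (7.56). So were all 12 endothelial markers, all 11 macrophage markers and 7 of 9 markers of liver and pancreas, so this cut alone does not check the tissue label. Of the marker lists, that for the cortex had the highest median level, at 13.02. On KO 1 the chromaffin and neural list averaged 7.81, against 10.29 to 10.96 on the other 9 arrays, and fat markers averaged 12.13 on KO 1 and 11.98 on KO 3, against at most 10.40 on any other array. Whether the dissected tissue differed in makeup was not tested, and in whole tissue fewer cells of a type and less RNA per cell cannot be told apart.

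Ly6d, a surface antigen known from B-lineage cells and keratinocytes, gave one of the brightest signals of the adrenal arrays. Its levels were 13.46, 13.19, 13.72, 13.75 and 13.74 on KO 1 to KO 5, and 13.70, 13.51, 13.52, 13.77 and 13.59 on WT 1 to WT 5. All 10 arrays lay within 0.58 log2 units, with KO 2 the lowest and WT 4 the highest, and the WT values fell inside the range of the KO values except for WT 4. With a mean of 13.59 ± 0.18 (SD over 10 arrays), Ly6d ranked 11 of 19661 genes, and its rank on single arrays lay between 9 and 30. Its rank was 11 over the KO arrays alone and also 11 over the WT arrays alone.

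Several steroidogenic genes stood near Ly6d in this order. Those brighter than Ly6d were Eef1a1, Actb, Cyp11a1, Rn7sk, Cyp11b1, Cyp21a1, Fth1, Star, Adh1 and Psap. Cyp11a1 (13.95 ± 0.11) cleaves the side chain of cholesterol, Cyp11b1 (13.93 ± 0.22) makes corticosterone, and Star (13.81 ± 0.28) carries cholesterol into the mitochondrion. The direct neighbours of Ly6d in rank, the lysosomal gene Psap at 13.61 ± 0.09 and the lipoprotein receptor gene Scarb1 at 13.47 ± 0.28, differed from it by less than the spread over arrays (SD, n = 10).

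Ly6e, an interferon-inducible member of the family, had the next highest level. It was at 12.30, 11.84, 12.19, 12.46 and 11.97 on KO 1 to KO 5, and at 12.65, 12.43, 12.01, 12.59 and 12.24 on WT 1 to WT 5. The lowest were KO 2, KO 5 and WT 3, the same arrays that stood apart on the first component, and the highest were WT 1 and WT 4. The mean of 12.27 ± 0.27 (SD, n = 10) gave rank 142 of 19661 genes, with single arrays between ranks 101 and 266.

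Ly6k, known from germ cells of the testis, was close to the level of the median gene and was the most variable member. Its levels were 7.34, 7.23, 7.53, 8.70 and 7.99 on KO 1 to KO 5, and 8.88, 6.98, 7.59, 9.04 and 7.99 on WT 1 to WT 5. KO 4, WT 1 and WT 4 stood above the others at 8.70 or more, and these arrays came from 3 different batches and from both genotypes. Between the lowest and the highest array the signal differed by 2.06 log2 units, or 4.16-fold. The SD of 0.73 over 10 arrays was larger than that of 92.9% of all genes, against 26.6% for Ly6d and 53.1% for Ly6e. The mean of 7.93 gave rank 8471, and single arrays lay anywhere between ranks 4675 and 11781.

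Ly6h, best known from brain, had the lowest level of the 4 measured members. Its levels were 6.78, 6.65, 7.01, 6.94 and 6.51 on KO 1 to KO 5, and 6.66, 6.72, 6.53, 6.85 and 6.62 on WT 1 to WT 5. KO 3 and KO 4, both of batch 2, were the highest, and KO 5 and WT 3 were the lowest. The mean of 6.73 ± 0.17 (SD, n = 10) lay under the median gene, at rank 12902, and 34.4% of genes had a lower level. The ranges of Ly6h and Ly6k met (7.01 on KO 3 for Ly6h and 6.98 on WT 2 for Ly6k), whereas those of Ly6d and Ly6e did not overlap with each other or with any of these.

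**Figure D1:**
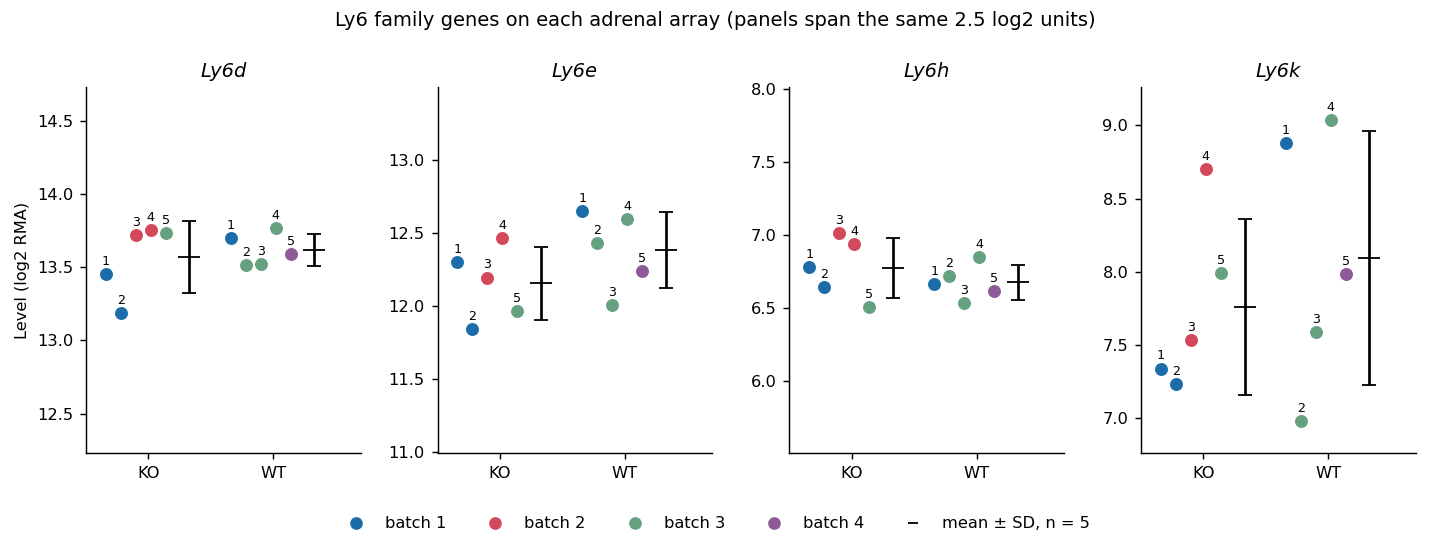
Level (log2 RMA, vertical axis) of the 4 measured Ly6 genes on each array, with KO left of WT, the replicate number above each point, colour for the batch, and the mean ± SD of 5 arrays beside each group. The panels span the same 2.5 log2 units: KO and WT overlap in every panel, Ly6d stays within 0.58 units, and Ly6k spreads over 2.06 units with KO 4, WT 1 and WT 4 at the top.

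**Figure D2:**
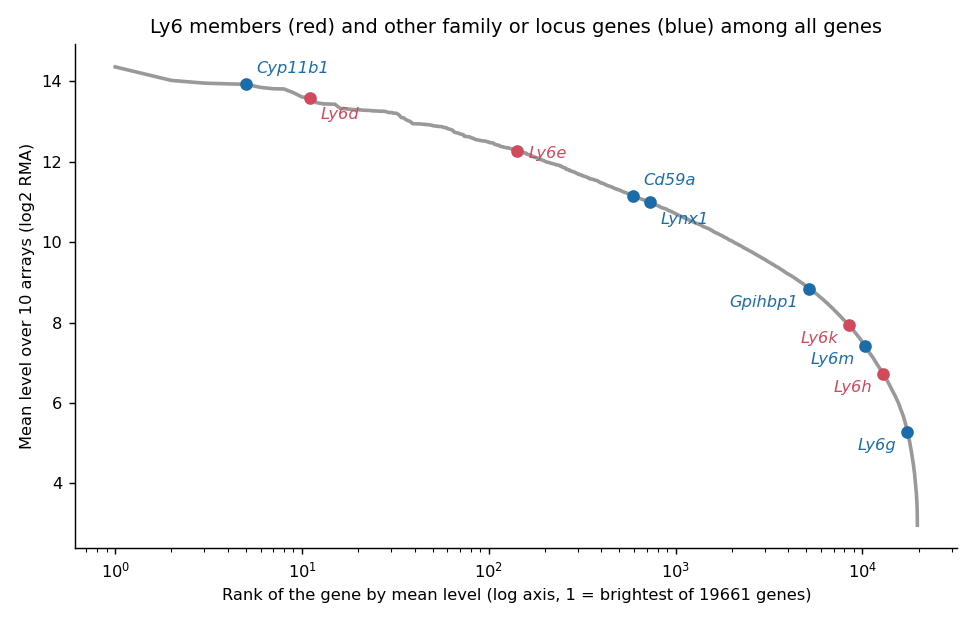
Mean level over 10 arrays (log2 RMA, vertical axis) of 19661 genes in order of rank (log axis), with the measured Ly6 members in red and other genes of the family or the locus in blue. Ly6d lies at rank 11 beside Cyp11b1 at rank 5, Ly6e at rank 142, Ly6k at rank 8471 and Ly6h at rank 12902.

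The comparison of genotypes asks whether a member differed between adrenal glands of KO and WT mice. No difference passed the test. Over all 25664 probes, limma called 0 at an adjusted p under 0.05, so the background was 0%, and 0 of the 4 members were called. At an unadjusted p under 0.05, 878 probes (3.42%) and 0 members passed. The levels in KO and WT failed to overlap in 141 of 19661 genes (0.717%) and in 0 of the 4 members.

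Ly6d averaged 13.57 ± 0.24 in KO glands and 13.62 ± 0.11 in WT glands (SD, n = 5 each). The difference of -0.05 (standard error 0.13, 95% interval -0.33 to 0.23) was smaller than the SD of either group. It did not pass the test (limma unadjusted p = 0.705, adjusted p = 0.999, two-sided exact permutation p = 0.722). No probe of this fit had an adjusted p under 0.999, so the adjusted value does not single out any gene. The smallest p that the exact test can give with 252 choices of 5 arrays is 0.00794. With batch as a fixed block the difference was -0.11, within batch 1 it was -0.38, and within batch 3 it was 0.13, so its sign was not the same in the 2 batches that hold both genotypes.

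Ly6e averaged 12.15 ± 0.25 in KO glands and 12.38 ± 0.26 in WT glands (SD, n = 5 each). Its difference of -0.23 (standard error 0.16, 95% interval -0.58 to 0.12) did not pass the test either (limma adjusted p = 0.999, exact permutation p = 0.198). The value was -0.57 within batch 1, which has 1 WT array, and -0.38 within batch 3, which has 1 KO array. Batch as a fixed block combines these 2 values and gave -0.47 (standard error 0.20). The 3 arrays at the low end of Ly6e included 2 of the 5 KO arrays and 1 of the 5 WT arrays, and without them the difference was -0.16 (standard error 0.13). The part of these arrays in the difference was not tested further.

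Ly6k averaged 7.76 ± 0.60 in KO glands and 8.10 ± 0.87 in WT glands (SD, n = 5 each), a difference of -0.34 with a standard error of 0.42 (95% interval -1.27 to 0.60, limma adjusted p = 0.999, exact permutation p = 0.508). In batch 1, the mean of KO 1 and KO 2 minus WT 1 was -1.60, whereas in batch 3 KO 5 lay 0.12 above the mean of 3 WT arrays that themselves spanned 6.98 to 9.04. Each of these values rests on 1 array of one genotype. The interval holds differences of either sign, and it is the widest of the 4.

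Ly6h averaged 6.78 ± 0.21 in KO glands and 6.68 ± 0.12 in WT glands (SD, n = 5 each). The difference was 0.10 (standard error 0.12, 95% interval -0.16 to 0.36, limma adjusted p = 0.999, exact permutation p = 0.365). It was -0.08 with batch as a fixed block, and within batch 3 it was -0.19, so its direction depended on how batch was treated.

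**Figure D3:**
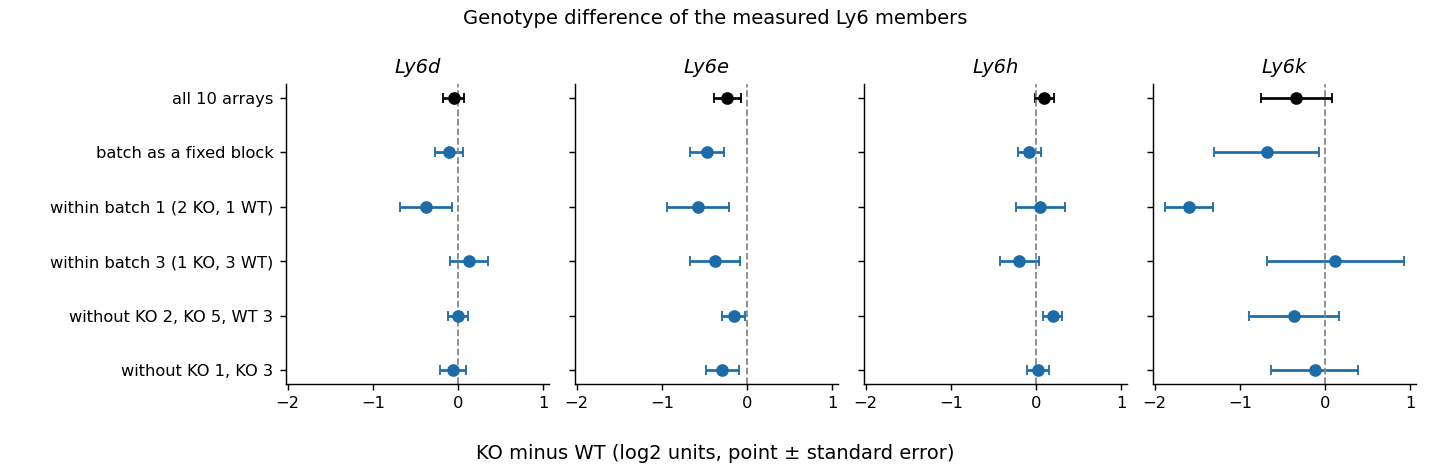
KO minus WT (log2 units, horizontal axis) of the measured Ly6 genes, as point ± standard error from limma, over all 10 arrays (black) and under batch and array settings (blue), with a dashed line at 0. The points of Ly6e lie below 0 in all 6 settings, those of Ly6d and Ly6h fall on both sides of 0, and Ly6k ranges between -1.60 within batch 1 and 0.12 within batch 3.

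In the order of genes on chromosome 15 in the RefSeq table, the members stand among other Ly6 genes and the adrenal cytochrome genes. The stretch between the outermost members holds 37 genes, and with 5 more on either side 47, of which 22 were measured. Bright and dim genes lie side by side in it: 5 of the 22 had a level above 10, namely Lynx1, Ly6d, Cyp11b1, Cyp11b2 and Ly6e, and 15 lay under the median gene. Lynx1, a modulator of nicotinic acetylcholine receptors, is listed directly before Ly6d and had a level of 10.99 ± 0.40 (SD, n = 10). Among measured genes, Ly6d is followed by Ly6g6g (6.62) and Ly6k, and then, past Gml (6.12), Cyp11b1 at 13.93 and the aldosterone synthase gene Cyp11b2 at 11.70. Farther along, Ly6i (4.95), Ly6a2 (5.29), Ly6g (5.29) and Ly6f (6.16) were all below the median gene, and Gpihbp1, which holds lipoprotein lipase on capillaries, stood next to Ly6h at 8.85. At an unadjusted p under 0.05, 0 of the 22 genes differed between KO and WT (limma adjusted p = 0.999 for Cyp11b1, with a difference of -0.17). Of all probes 3.42% passed this cut, so with 22 genes a count of 0 is close to that share.

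**Figure D4:**
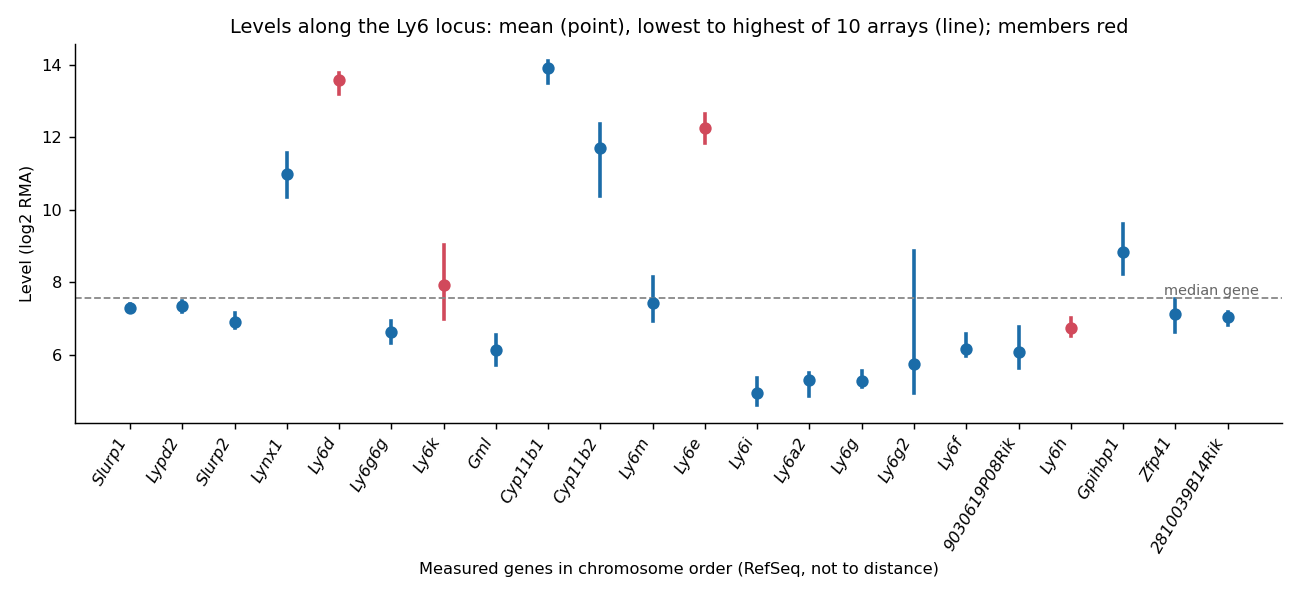
Level (log2 RMA, vertical axis) of the 22 measured genes of the Ly6 locus in chromosome order (not to distance), as the mean (point) and the lowest to highest of 10 arrays (line), with members in red and the median gene as a dashed line. Ly6d, Cyp11b1, Cyp11b2, Lynx1 and Ly6e stand above a level of 10 among neighbours that are mostly under the median gene, and Ly6g2 has the longest line because of 1 array.

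Ly6g2, a further gene of this stretch named after its values were seen, had 8.85 on KO 1, 5.25 to 5.89 on the other KO arrays and 4.95 to 6.03 on the WT arrays. Markers of liver and pancreas averaged 11.15 on KO 1 and at most 8.59 on any other array. KO 1 was also the highest array for the lists of fat, capsule and stroma, lymphocytes, monocytes and neutrophils, and the X zone of the cortex. It was the lowest for the chromaffin and neural list. The part of any of these lists in the value of Ly6g2 was not tested.

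Covariation across arrays was examined next, to ask whether the members moved with the cortex or with other cell types. No relation between Ly6d and the genes of the cortex list (steroidogenesis) was detected. The list averaged 12.03 to 12.55 on KO arrays and 12.38 to 12.58 on WT arrays, with KO 1 and KO 3 the lowest. Its Pearson correlation with Ly6d was -0.04 (permutation p = 0.917) and Spearman's rho 0.03 (p = 0.946). Without KO 1 and KO 3, the 2 arrays farthest from the median, r was -0.17, with batch means removed it was -0.03, and without KO 2, KO 5 and WT 3 it was 0.28. Cyp11b1 alone gave r = 0.06 (permutation p = 0.856) and rho = 0.33 (p = 0.347), and r = 0.11 without KO 1 and KO 3. On these 2 arrays Cyp11b1 was at 13.50 and 13.54, against 13.94 to 14.10 on the other 8, whereas Ly6d was at 13.46 and 13.72.

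Cortex genes gave r = 0.08 with Ly6e, -0.42 with Ly6h and 0.36 with Ly6k (permutation p = 0.831, 0.225 and 0.306). In all, 52 pairs of a member and a marker list were computed. None passed Benjamini-Hochberg adjustment for r or for rho, with 0.648 the smallest adjusted p. Before adjustment, 3 values of r and 2 of rho had a p under 0.05.

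Ly6d is an antigen of lymphocytes and keratinocytes, and markers of both were dim in these glands. Of 9 measured lymphocyte markers and 11 measured keratinocyte markers, 0 were above the median gene. The lymphocyte list averaged 5.89 to 6.70 on KO arrays and 6.03 to 6.24 on WT arrays, and the keratinocyte list 6.15 to 6.30 on KO arrays and 6.19 to 6.32 on WT arrays. No relation of either to Ly6d was detected (r = 0.00 and 0.36, permutation p = 0.999 and 0.313). Over all 10 arrays, the strongest relation of Ly6d to a list was with interferon-stimulated genes (r = -0.57, permutation p = 0.0899, rho = -0.15), and it did not hold without KO 2 and KO 3 (r = 0.26). Other lists had a stronger r with Ly6d over the 7 arrays without KO 2, KO 5 and WT 3. The largest in size were -0.89 for capsule and stroma, -0.83 for macrophages and 0.75 for chromaffin and neural cells. They were picked by size from all lists, and no p is given for them here. Over all 10 arrays the r of these lists was 0.02, 0.33 and 0.28 (permutation p = 0.962, 0.347 and 0.382). Leaving out 1 array gave an r of -0.86 to 0.16, -0.55 to 0.45 and 0.07 to 0.62, in the same order. The r of the first 2 lists therefore depended on single arrays even in sign. The rho over all 10 arrays was -0.33, -0.10 and 0.45 for these lists (p = 0.347, 0.784 and 0.191).

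Ly6e is interferon-inducible, and its r with the list of interferon-stimulated genes was negative and did not pass the test (r = -0.50, permutation p = 0.144, and rho = -0.47, p = 0.178). Without KO 2, KO 5 and WT 3 that r was 0.48. Its strongest relation was with the keratinocyte list (r = 0.76, permutation p = 0.0125, adjusted p = 0.648, and rho = 0.60, p = 0.072), a list that spanned only 6.15 to 6.32. It was 0.89 with batch means removed, 0.50 without KO 2 and KO 5, and -0.32 without KO 2, KO 5 and WT 3, and so rested on those arrays.

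Ly6h had its highest r with the lymphocyte list (r = 0.65, permutation p = 0.0421, and rho = 0.75, p = 0.0177, adjusted p = 0.65 and 0.664). The r was 0.68 without KO 1 and KO 3, 0.59 with batch means removed and 0.34 without KO 2, KO 5 and WT 3. The r with the keratinocyte list was close to it (0.64, permutation p = 0.0465, and rho = 0.49, p = 0.154), being 0.83 with batch means removed, 0.48 without KO 2 and KO 5, and -0.13 without KO 2, KO 5 and WT 3. With interferon-stimulated genes r was -0.58 (permutation p = 0.0765) and rho -0.71 (p = 0.0268), and r was -0.53 without KO 2 and KO 3 and -0.24 with batch means removed. Ly6h also correlated with the mean of the probes in the lowest quartile of level (r = 0.64, permutation p = 0.0451, and rho = 0.42, p = 0.233), which spanned 4.88 to 4.98 on KO arrays and 4.87 to 4.91 on WT arrays. With batch means removed that r was 0.07, and without KO 1 and KO 3 it was 0.35. With the same mean of dim probes, r was 0.12 for Ly6d, -0.09 for Ly6e and -0.34 for Ly6k (permutation p = 0.743, 0.803 and 0.333). With batch means removed, these r values were -0.30, -0.30 and -0.71. The part of the shared movement of dim probes in the values of the members was not tested.

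Among the members themselves, Ly6d and Ly6k had the closest pattern across arrays. Over the 10 arrays r was 0.71 (permutation p = 0.0188) and rho 0.83 (p = 0.00482). Adjusted over 14 pairs, a set of relations added after the data were seen, p was 0.252 for r and 0.0675 for rho, so the relation did not pass the threshold. It was 0.67 without WT 1 and WT 4, 0.80 with batch means removed, and 0.79 without KO 2, KO 5 and WT 3. The arrays with the most Ly6k, KO 4, WT 1 and WT 4, were between 13.70 and 13.77 in Ly6d, and KO 2 and KO 1 were low in both. KO 3 departed from this most, with Ly6d at 13.72 and Ly6k at 7.53. Ly6k spanned 2.06 log2 units over these arrays and Ly6d 0.58. The other pairs were weaker: r was 0.56 for Ly6d and Ly6e, 0.62 for Ly6e and Ly6k, and 0.18 for Ly6h and Ly6k (permutation p = 0.0901, 0.0605 and 0.611).

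**Figure D5:**
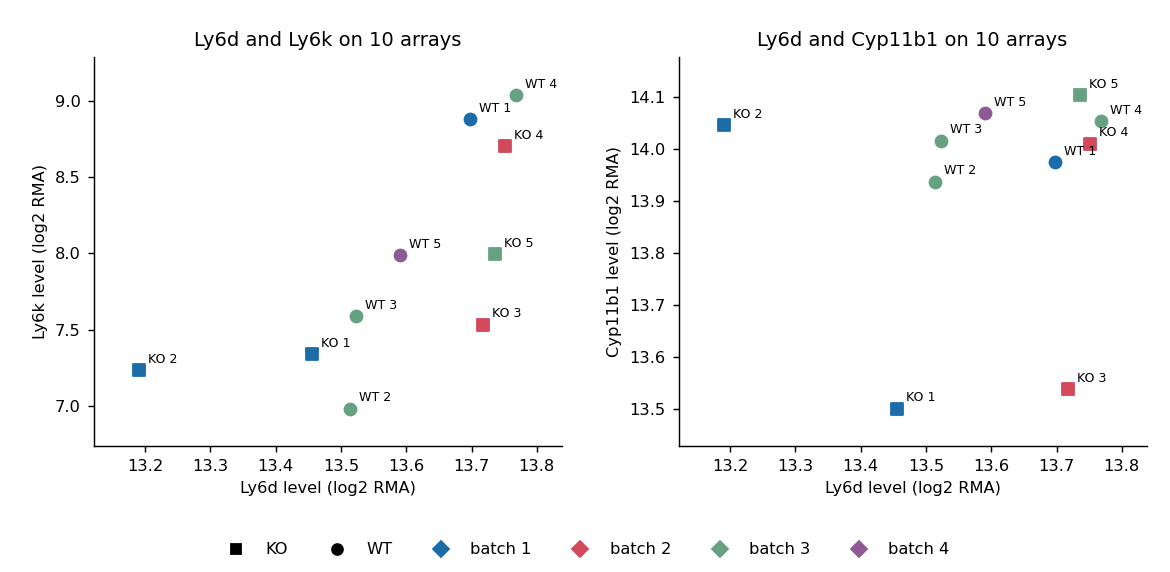
Level of Ly6d (horizontal axis) against that of Ly6k (left) and of Cyp11b1 (right) on 10 arrays, all in log2 RMA units, with squares for KO, circles for WT and colour for the batch. The 3 arrays highest in Ly6k have Ly6d between 13.70 and 13.77 (r = 0.71), whereas Cyp11b1 is low only on KO 1 and KO 3, where Ly6d is at 13.46 and 13.72 (r = 0.06).

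Genes with the pattern most like each member were taken by Pearson r over the 10 arrays among 9830 genes with a level above the median; with this many genes compared, a high r is a description only. For Ly6d these were Unc45bos (0.91), the signalling adaptor gene Dok3 (0.86), Klhl9 (0.85), the histamine receptor gene Hrh1 (0.84), the dopamine receptor gene Drd1 (0.83), the zinc transporter gene Slc30a3 (0.83), Zfp503 (0.83) and the phosphatase gene Pgp (0.82). None of the 8 was a gene of the cortex list, but that list held only 11 of the 9830 genes compared, so its absence says little. Over the 7 arrays without KO 2, KO 5 and WT 3 the r of these 8 genes lay between 0.56 and 0.90. The genes most like Ly6e were the atypical chemokine receptor gene Ackr3 (0.94), Smim3 (0.93), E130304I02Rik (0.92) and Foxk2 (0.91). For Ly6k they were Jakmip1 (0.88), the phospholipase gene Plb1 (0.83), Cd1d2 (0.82) and the serotonin-gated channel gene Htr3a (0.79). For Ly6h they were 2310068J16Rik (0.97), the plakophilin gene Pkp3 (0.95), Cby3 (0.93) and Mir99b (0.91).

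The wider family was low in the adrenal gland apart from a few genes. Of 43 further genes with a Ly6-type domain, 38 were measured and 6 lay above the median gene. Cd59a, an inhibitor of complement lysis, was the brightest of them at 11.15 ± 0.31, followed by Lynx1 at 10.99 ± 0.40, Gpihbp1 at 8.85 ± 0.55, Lypd1 at 7.99 ± 0.20, Cd59b at 7.97 ± 0.41 and Ly6g6e at 7.60 ± 0.12 (SD, n = 10). Spaca4 at 7.45 and Ly6m at 7.42 came next, just under the median gene.

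None of the 38 was called between KO and WT by limma. The count of positive differences was 22 and that of negative ones 16, with a median of 0.05, against 9194 positive and 10467 negative and a median of -0.01 over all 19661 genes. At an unadjusted p under 0.05 there was 1 of the 38, close to the share of 3.42% among all probes. This gene, Ly6g6c, was at 6.73 ± 0.15 in KO glands and 6.49 ± 0.11 in WT glands (SD, n = 5 each, difference 0.24, limma adjusted p = 0.999). The difference was 0.12 (standard error 0.13) with batch as a fixed block and 0.067 (standard error 0.22) within batch 3, smaller than its standard error in both. With batch as a random block it was 0.21 (standard error 0.098), and without KO 2, KO 5 and WT 3 it was 0.29 (standard error 0.098). For Cd59a, KO arrays averaged 11.25 ± 0.42 and WT arrays 11.05 ± 0.13 (SD, n = 5 each), and the difference was 0.20 over all arrays. It was 0.55 (standard error 0.16) when batch was a fixed block, and 0.59 and 0.52 in batches 1 and 3 alone. Without KO 2, KO 5 and WT 3 it was -0.00 (standard error 0.21), and without KO 1 and KO 3 it was 0.34 (standard error 0.14). Its size thus depended on which arrays were kept. KO 3 was the lowest array, at 10.57, and KO 1, at 11.51, was as high as KO 2, at 11.47.

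The enzymes and subunits that build the GPI anchor and attach it were measured as a second list. Of 30, 29 were measured and 25 lay above the median gene, with levels between 7.09 and 10.97. By limma, 0 were called and 1 passed an unadjusted p under 0.05, with a lower level in KO. That is close to the share of 3.42% among all probes. The differences were positive for 8 and negative for 21, with a median of -0.08. The median was -0.01 over all 19661 genes and -0.07 over the brighter 12832 probes, so the shift of this list was close to that of bright probes in general.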

How the data were processed

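The deposited values are log2 levels per probe set of 10 Affymetrix arrays. The submitters' processing notes credit RMA (background correction, quantile normalisation and a summary of probes). Its software, filters and batch handling were not given in the sources used here. The values spanned 2.75 to 14.64, and genes were not centred. Of 35557 rows, 25689 held values, and 25 control probes were left out, leaving 25664. A single gene symbol was given for 20777 of them, several for 232 and none for 4655. A gene was represented by its brightest probe with a single symbol. Entrez IDs of 19584 genes matched the RefSeq table of assembly GRCm38.p6, which was used for names and gene order only.

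Genotypes were tested by the lmFit and eBayes functions of limma 3.58.1 under R 4.3.3 (two-sided, no covariates), with Benjamini-Hochberg adjustment over all probes and a threshold of 0.05. Each array was taken as a separate animal, as the labels number the mice. Exact permutation tests ran over all choices of 5 arrays, and correlations had 100000 resamples. Alternatives were batch as a fixed block or as a random block (consensus correlation 0.172), fits within batches 1 and 3, a median shift, repeated quantile normalisation, the brighter probes, eBayes with trend and robust, and fits without single arrays, without KO 2, KO 5 and WT 3, and without KO 1 and KO 3. The fit was tested on simulated data with independent noise for each probe and no batch effect. That simulation does not cover the variation that probes share across the real arrays.

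The members and all gene lists were chosen with earlier results of these data known. Named were the 7 members and Crem, the 8 brightest further family genes and any at an unadjusted p under 0.05, measured genes of the locus with 5 flanking genes on either side, the 8 genes most like Ly6d and the 4 most like each other member by Pearson r, and marker genes of cell types. Of the marker genes fixed as references, Star and Cyp11b1 are given in the text. The number of arrays limits the precision.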

Additional observations from a re-analysis of the deposited data

Results flagged for a closer look

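Of 66 groups of 5 arrays checked over 33 genes and list means, 4 held an array that lay far from the other 4 (Dixon's criterion, 0.71). Chance flags about 1 in 20 groups of independent values. The groups here share arrays, and Ly6g2 was named after its values were seen, so the count cannot be compared with that rate. Lypd1, a Ly6-type gene, was at 8.26 on KO 4 and at 7.74 to 7.87 on the other KO arrays. Ly6g2 was at 8.85 on KO 1, against 5.25 to 5.89 on the other KO arrays, and at 6.03 on WT 2, against 4.95 to 5.26 on the other WT arrays. The chromaffin and neural list averaged 7.81 on KO 1 and 10.29 to 10.91 on the other KO arrays. None of the 4 measured members was among them.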

How the results depend on the processing

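In every fit tried limma called 0 probes and 0 members, and the members' adjusted p lay between 0.495 and 1.00. The count of probes at an unadjusted p under 0.05 was 878 over all arrays, 1843 with batch as a fixed block, 224 within batch 1, 264 within batch 3, 402 of 12832 among the brighter probes and 3126 without KO 2, KO 5 and WT 3, and 503 (without WT 5) to 1462 (without KO 4) when 1 array was left out, with 551 without WT 2 and 1408 without WT 3.

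Ly6e kept its negative difference in all fits (-0.32 to -0.15 when 1 array was left out). The sign of Ly6d turned within batch 3 (0.13), and leaving out 1 array gave -0.094 to 0.046, the positive value being without KO 2. Ly6h turned with batch as a fixed block (-0.079) and within batch 3 (-0.19), and Ly6k within batch 3 (0.12). Leaving out 1 array gave 0.04 to 0.17 for Ly6h and -0.61 to -0.10 for Ly6k. The causes were not tested.

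Ly6d kept rank 10 or 11 in every alternative, and Ly6h ranked 13468 when all 20777 probes with 1 symbol were ranked, since more rows were counted.

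The r of Ly6d and the cortex list turned to 0.28 without KO 2, KO 5 and WT 3 (-0.27 to 0.28 leaving out 1 array). With interferon-stimulated genes, Ly6d gave 4.5e-05 without those 3 arrays, 0.26 without KO 2 and KO 3, and -0.71 to 0.049 leaving out 1 array. The r of Ly6e and the cortex list was -0.020 to 0.27 leaving out 1 array, that of Ly6e and the keratinocyte list -0.32 without KO 2, KO 5 and WT 3, and that of Ly6h and the cortex list 0.47 without KO 1 and KO 3.

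No paired analysis was possible because the replicate numbers only count the animals of each genotype and pair none of them. Dim probes, Ly6h among them, have no background level here to be set against.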
